A study of Mus musculus with 8 samples.

Results

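The response of mouse hepatocytes to retinoic acid (RA) after 3 h was read from 4 of the 8 arrays in the series, chosen by the time in their sample titles. The arrays held AML12 cells with 1 µM RA, v-erbA AML12 cells with 1 µM RA, untreated AML12 cells and untreated v-erbA AML12 cells, all collected at 3 h, with 1 array for each. AML12 is a non-tumour hepatocyte line derived from the liver of a mouse transgenic for transforming growth factor alpha, so all groups share that origin. v-erbA is an avian retroviral oncogene that encodes a mutated thyroid hormone receptor, and the labels do not say whether the transfected line is 1 clone or a pool, nor whether the AML12 control cells carried an empty vector. The remaining 4 arrays repeat the design at 24 h. The treatment note entered for the untreated AML12 sample of 3 h mentions RA, whereas its title and description call it untreated, and the title was followed.

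Retinoic acid is the active form of vitamin A and enters the nucleus, where it binds the retinoic acid receptors RARα, RARβ and RARγ. These receptors pair with retinoid X receptors on DNA at repeats of a short half-site, release corepressors and recruit coactivators, so direct target genes can change within a few hours. Classical targets include the gene of RARβ itself, the RA-degrading cytochrome Cyp26a1, the retinaldehyde reductase Dhrs3 and the coregulator Nrip1. The liver stores most of the body's vitamin A, and related nuclear receptors regulate its genes for handling bile acids, fatty acids and retinoids.

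Repeats of the half-site with a spacer of 5 bases (DR5) are the best known binding element of the RAR pair. Promoter windows were taken from RefSeq (GRCm38.p6), from 250 bases before to 50 bases after each gene's start, and searched on both strands for direct repeats with spacers of 1, 2 and 5 bases. The half-sites allowed were AGGTCA, the textbook form, and the variants that read AGTTCA, those that read GGGTCA and those that read GGTTCA, in any combination. Of 19 RA receptor targets with a promoter entry, 2 held a DR5 repeat, Rarb and Cyp26a1. Their windows are shown because they carry the element described for this pathway, with the half-sites in capitals. The Rarb window lies at chr14:16575427-16575726 on the minus strand and the Cyp26a1 window at chr19:37697558-37697857 on the plus strand, and the repeat of Cyp26a1 reads as half-sites on the opposite strand.
Rarb: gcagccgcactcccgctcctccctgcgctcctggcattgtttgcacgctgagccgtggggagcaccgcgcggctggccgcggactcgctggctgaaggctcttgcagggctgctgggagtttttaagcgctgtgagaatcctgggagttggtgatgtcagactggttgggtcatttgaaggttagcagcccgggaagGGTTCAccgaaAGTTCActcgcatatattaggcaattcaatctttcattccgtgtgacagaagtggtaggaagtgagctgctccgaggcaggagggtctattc
Cyp26a1: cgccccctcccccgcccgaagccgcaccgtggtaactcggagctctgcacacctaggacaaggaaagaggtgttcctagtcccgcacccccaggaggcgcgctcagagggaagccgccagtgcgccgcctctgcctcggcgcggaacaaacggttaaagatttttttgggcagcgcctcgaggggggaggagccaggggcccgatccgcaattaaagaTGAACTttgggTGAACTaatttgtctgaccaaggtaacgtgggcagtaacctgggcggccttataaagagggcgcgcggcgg
Of all 32851 promoter windows, 0.0974% held a DR5 repeat, 0.268% a repeat with a spacer of 2 bases and 0.222% one with a spacer of 1 base. Of the 48 genes that passed the test at 3 h, described next, 40 had a promoter entry, and 0 of their 49 windows held any of the 3 repeats. These letters were searched for in this window alone.

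Signals are given in the array's linear units, as deposited. Differences are log2(signal + 19.9) with RA minus without it, so that 1 is a doubling of a bright signal, and they understate the change of dim genes. Of 18192 genes on the array, 12015 exceeded the pooled median of 73.5 units on at least 2 of the 8 arrays and were tested with limma, which took the 3 h effect from the 3 h arrays, paired by line, and its spread from all 8. Median signals were 71.2 and 71.4 units on the RA arrays of AML12 and v-erbA AML12 cells, against 72.4 and 74.5 units on the untreated arrays. Across the genes tested, Pearson's correlation between RA and untreated arrays was 0.996 in v-erbA AML12 and 0.993 in AML12 cells, and between the lines it was 0.966 with RA and 0.963 without. Hepatocyte markers lay above the pooled median on all 4 arrays for 5 of 5 genes found, with summed signals of 28356 and 22745 units with RA, against 28902 and 22889 units without it. Endothelial markers lay below it on all 4 arrays for 4 of 5 genes, Pecam1, Cdh5, Tek and Vwf. Of 6 macrophage markers 3 lay below it on all 4 arrays, Ptprc, Cd68 and Lyz2, and 3 above it, Adgre1, Csf1r and Cd14. Fibroblast and stellate markers lay below it on all 4 arrays for 4 of 7 genes. In such bulk samples, a change in the number of cells of a type and a change in RNA per cell cannot be told apart.

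In the 8-array fit few transcripts passed at 3 h, and 44 of the 48 that did were higher with RA. The receptor gene Nr0b2, the coregulator gene Nrip1, the monooxygenase gene Fmo5 and the cornified envelope genes Ivl and Sprr1a were among the largest increases, and Ppara, the receptor that drives fatty acid oxidation, was the largest decrease that passed. With limma at a Benjamini-Hochberg adjusted p under 0.05, 48 of 12015 genes passed (0.4% of those tested), 44 higher (0.366%) and 4 lower (0.0333%), and 915 genes had an unadjusted p under 0.05. The mean change was at least 2-fold for 7 of them, and the smallest change that passed was 0.24. Of the 48 genes, 47 lay above the pooled median on all 4 arrays, and their median signal was 846 units against 357 units for all genes tested. Both RA arrays lay above or below both untreated arrays for 39 of the 48, whereas among all genes tested 7.98% lay fully above and 7.88% fully below. The count rests on how the spread is taken: 0 genes passed without the mean-variance trend (882 with an unadjusted p under 0.05), and 464 passed when the 3 h arrays were fitted alone, 262 higher and 202 lower. Without the RA or the untreated 3 h array of AML12 cells 1 gene passed in each case, without the RA or the untreated one of v-erbA AML12 cells 8 and 9 passed, and without any 1 of the 24 h arrays 489 to 497 passed, of which 56.6% to 57.4% were higher, against 91.7% of the 48.

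Among nuclear receptors and their coregulators, 2 genes rose and 1 fell. Nr0b2 encodes SHP, an orphan receptor without a DNA-binding domain that represses bile acid synthesis. Its signal was 916 units in AML12 and 139 units in v-erbA AML12 cells with RA, against 108 and 23.6 units in the same lines without RA. Both RA arrays lay above both untreated arrays, although its level differed widely between the lines. Nr0b2 rose by 2.37 ± 0.22 (SE, n = 2 pairs, limma adjusted p = 0.0066). In v-erbA AML12 cells, where the untreated signal lay under the pooled median, it was at least 1.70-fold higher, and in AML12 cells it differed by 2.87. Nrip1 encodes RIP140, a corepressor that binds ligand-bound receptors. It read 1155 and 968 units with RA in AML12 and v-erbA AML12 cells, against 333 and 264 units without RA, and rose by 1.77 ± 0.08 (limma adjusted p = 3.5e-04), with 1.80 in v-erbA AML12 and 1.74 in AML12 cells. The groups were far apart and the lines close together. Other probe sets of Nrip1 differed by 1.74, 1.67, 1.54, 0.32 and 0.01. Ppara read 343 and 506 units with RA, against 750 and 806 units without, in AML12 and v-erbA AML12 cells. It fell by 0.87 ± 0.10 (limma adjusted p = 0.0125), with -0.65 in v-erbA AML12 and -1.08 in AML12 cells, and both RA arrays lay below both untreated ones. Its other probe sets differed by -0.78 and -0.27.

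**Figure D1:**
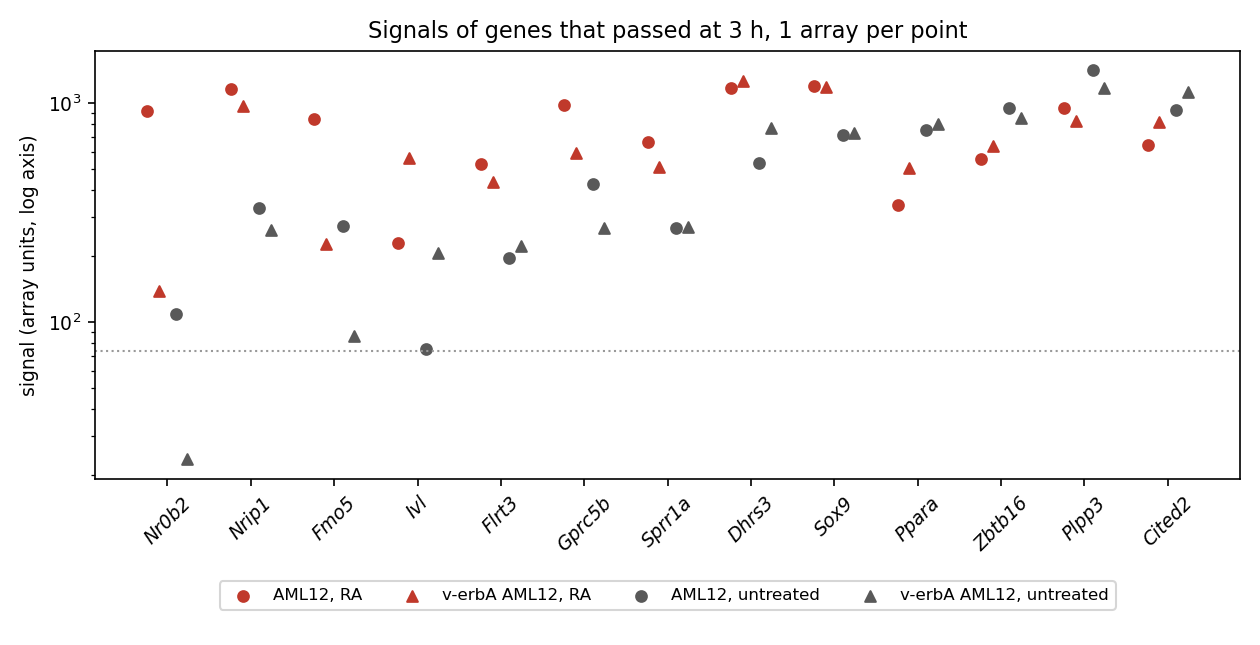
Signals of 13 genes that passed at 3 h, on a log axis in array units, with 1 point per array (red, RA; grey, untreated; circles, AML12; triangles, v-erbA AML12). The dotted line is the pooled median of 73.5 units. The red points lie above the grey ones of the same line for 9 genes from Nr0b2 to Sox9 and below them for Ppara, Zbtb16, Plpp3 and Cited2.

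The other receptors of the list did not pass. Of 19 other nuclear receptors tested, 1 rose and 1 fell, and the median difference was -0.10, beside 0.00 over all genes tested. Hnf4a, the master factor of hepatocyte identity, differed by -0.21 ± 0.05 (limma adjusted p = 0.20), and Nr5a2, a bile acid and cholesterol regulator, by 0.27 ± 0.05. Of 18 receptor coregulators 1 rose, Nrip1, and 0 fell (median 0.02). Of 6 retinoid and thyroid hormone receptors tested 0 passed. Rarb had the largest difference there, with 82.7 and 78.5 units with RA in AML12 and v-erbA AML12 cells, against 23.6 and 24.0 units without. Its untreated arrays lay under the pooled median, so that it was at least 1.08-fold higher over both lines, with a fitted difference of 1.20 ± 0.22 that did not pass (limma adjusted p = 0.0884). Rxra differed by -0.18 ± 0.10, Rarg by -0.08 ± 0.18, and Thra, the cellular counterpart of v-erbA, by 0.00 ± 0.09. Other probe sets of Thra differed by 0.03 and -0.37, the latter with -0.35 in v-erbA AML12 and -0.40 in AML12 cells. Rara lay under the pooled median on all 4 arrays, between 57.7 and 65.3 units.

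Targets of the RA receptors and retinoid enzymes moved in part. Of 17 RA receptor targets tested 12 were higher in both lines (29.0% of all genes tested were), but the list was chosen with earlier results of these data known. Their median was 0.20, 0 fell and 3 rose. Besides Nrip1 these were Gprc5b, a retinoic acid-induced orphan receptor, and Dhrs3, which reduces retinaldehyde to retinol. Gprc5b read 977 and 593 units with RA in AML12 and v-erbA AML12 cells, against 428 and 268 units without, and rose by 1.12 ± 0.07 (limma adjusted p = 0.0019). Dhrs3 read 1171 and 1259 units with RA, against 529.6 and 769 units without, and rose by 0.91 ± 0.09 (limma adjusted p = 0.0089). For both genes the RA arrays lay above the untreated arrays of both lines. Rdh10, which makes retinaldehyde from retinol, differed by 0.36 ± 0.07 (limma adjusted p = 0.128), Pdk4, a brake on glucose oxidation, by 0.52 ± 0.10, and Meis1, a homeobox factor, by 0.43 ± 0.12. Cyp26a1 stayed under the pooled median on all 4 arrays, with 67.1 and 65.1 units with RA, against 40.8 and 61.8 units without. Cyp26b1 differed by 0.09 ± 0.18, the RA-binding protein gene Crabp2 by 0.20 ± 0.17 and the transglutaminase gene Tgm2 by 0.06 ± 0.05. Of 17 retinoid enzymes and binding proteins 1 rose, Dhrs3, and 0 fell (median 0.04), and Stra6, the retinol uptake receptor, lay between 16.1 and 34.9 units.

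Genes of the cornified envelope, the protein shell of squamous epithelia that RA is classically known to suppress in skin, included increases. Of 8 genes tested from a squamous list, which also holds keratins, 2 rose, Ivl and Sprr1a, and 0 fell. The median of these 8 was 0.26, with medians of -0.08 in v-erbA AML12 and 0.43 in AML12 cells. Ivl, which encodes involucrin, read 228 and 559 units with RA in AML12 and v-erbA AML12 cells, against 75.1 and 207 units without. It rose by 1.37 ± 0.10 (limma adjusted p = 0.0024), with 1.35 in v-erbA AML12 and 1.39 in AML12 cells. Sprr1a, which encodes a small proline-rich envelope protein, read 661 and 511 units with RA, against 268 and 272 units without, and rose by 1.05 ± 0.11 (limma adjusted p = 0.0096). In both cases the RA arrays stood above the untreated ones of both lines. The keratin gene Krt6a differed by -0.31 ± 0.13 and the cornifelin gene Cnfn by -0.46 ± 0.24, neither of which passed.

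Few bile acid and lipid genes passed. Of 11 bile acid genes tested 1 rose, Nr0b2, and 0 fell (median 0.02). Slc51b, a subunit of the bile acid exporter of the basolateral membrane, read 223 and 157 units with RA in AML12 and v-erbA AML12 cells, against 73.3 and 87.5 units without, so that the groups did not overlap. It differed by 1.05 ± 0.22 and did not pass (limma adjusted p = 0.133), and Cyp7a1, the rate-limiting enzyme of bile acid synthesis, differed by -0.15 ± 0.13. Of 17 targets of PPARα and genes of fatty acid oxidation 2 rose, Acot1 and Acot2, and 1 fell, Ppara itself. Their median was 0.12, and 15 of the 17 were higher in both lines, as were 29.0% of all genes tested. This list too was chosen with earlier results of these data known. Acot2, a mitochondrial acyl-CoA thioesterase, read 909 and 897 units with RA, against 572 and 688 units without, and rose by 0.51 ± 0.07 (limma adjusted p = 0.0388). Acot1, its cytosolic relative, rose by 0.31 ± 0.04 (limma adjusted p = 0.0275) and the peroxisomal Acot3 by 0.78 ± 0.10 (limma adjusted p = 0.0241). These 3 genes are close copies that lie together on chromosome 12, and probes may be shared between them. Ehhadh, of peroxisomal β-oxidation, differed by 0.41 ± 0.11 and Cpt1a, which admits fatty acids to mitochondria, by 0.12 ± 0.05.

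Fmo5 led the xenobiotic and antioxidant genes, of which 1 of 16 rose and 0 fell (median 0.07). It encodes a liver flavin monooxygenase and read 844 and 226 units with RA in AML12 and v-erbA AML12 cells, against 275 and 86.0 units without. The RA array of v-erbA AML12 cells lay below the untreated AML12 array, so the groups overlapped, while each line was higher with RA than without. Fmo5 rose by 1.38 ± 0.09 (limma adjusted p = 0.0020), with 1.21 in v-erbA AML12 and 1.55 in AML12 cells. Other metabolic genes that passed were singled out after their values were seen. Chka, the choline kinase of phosphatidylcholine synthesis, read 2635 and 2194 units with RA, against 1468 and 1397 units without, and rose by 0.74 ± 0.05 (limma adjusted p = 0.0020). Tmem86a, a lysoplasmalogenase gene, rose by 0.83, Nudt19, which cleaves coenzyme A, by 0.55, and Aldh3a2, a fatty aldehyde dehydrogenase, by 0.49. Glul, the glutamine synthetase of perivenous hepatocytes, rose by 0.45 ± 0.05 and Klb, the liver coreceptor of FGF21 and FGF15, by 0.63 ± 0.07. The sulphate transporter Slc26a2 rose by 0.68 and the mitochondrial carrier Slc25a48 by 0.68 as well.

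Further genes that rose act in signalling or gene control, and some of them were singled out after their values were seen. Flrt3, a membrane protein that modulates FGF signalling, read 528 and 434 units with RA in AML12 and v-erbA AML12 cells, against 195 and 222 units without, and rose by 1.13 ± 0.13 (limma adjusted p = 0.0142). Epn2, an endocytic adaptor, read 577 and 490.3 units with RA, against 268 and 286 units without, and rose by 0.90 ± 0.13. Gse1 rose by 0.84 ± 0.06 and read 693 and 663 units with RA, against 373 and 365 units without. On none of these did an RA array fall within the untreated range. Of 13 Notch pathway genes 1 rose, Sox9, and 0 fell (median 0.02). Sox9, a progenitor and biliary transcription factor, read 1193 and 1184 units with RA, against 711 and 729 units without, and rose by 0.71 ± 0.05 (limma adjusted p = 0.0020). Its other probe sets differed less, by 0.32 and 0.44. The other biliary markers did not pass, and Krt19, Krt7 and Epcam read 4190, 333 and 237 units in AML12 cells with RA, against 4098, 333 and 189.8 units without. In v-erbA AML12 cells they read 2296, 450 and 195 units with RA, against 2088, 425 and 199 units without. Of 19 TGF-beta and BMP response genes 1 rose, Smad3, the signal transducer of TGF-beta, by 0.57 ± 0.05 (limma adjusted p = 0.0066), and 0 fell (median -0.02). Fstl3, a secreted antagonist of activin, rose by 0.78 ± 0.08. Of 17 ERK and EGF receptor feedback genes 1 rose, Errfi1, an inhibitor of the EGF receptor, by 0.24 ± 0.03. Of 20 p53 target and apoptosis genes 1 rose, the survival gene Bcl2, by 0.48 ± 0.07. Other probe sets of Bcl2 differed by 0.52, 0.25, 0.00 and -0.02. Cd14, the coreceptor of lipopolysaccharide, which hepatocytes also make, rose by 0.34 ± 0.04. Summed signals of the macrophage list that holds it were 4283 and 2542 units with RA in AML12 and v-erbA AML12 cells, against 3353 and 2151 units without. The list members Ptprc, Cd68 and Lyz2 lay between 8.51 and 60.4 units. Adgre1 and Csf1r, also of that list, lay between 83.5 and 190 units, above the pooled median on all 4 arrays.

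The remaining genes that rose did so by 0.33 to 0.82. Synpo, an actin-associated protein, rose by 0.82 ± 0.09, with 262 and 233 units with RA in AML12 and v-erbA AML12 cells, against 135 and 127 units without. Nrn1, a small membrane-anchored protein described in neurons, rose by 0.79, Wfdc3, of the whey acidic protein family, by 0.74, Pitpnc1, a phosphatidylinositol transfer protein, by 0.72, and the GTPase gene Rab20 by 0.72. Nabp1, a single-stranded DNA-binding protein, rose by 0.72, Osgin1, a gene of the oxidative stress response, by 0.70, and Pard6g, of the cell polarity complex, by 0.65. The galactosyltransferase gene B4galt5 rose by 0.54, Oaf by 0.50, Ypel2 by 0.47, Pik3r1, the regulatory subunit of PI 3-kinase, by 0.42, Ndrg1 by 0.40 and Cmip by 0.39. Serpinb6b, a protease inhibitor gene, rose by 0.38, Baiap2l1, an actin-bundling adaptor gene, by 0.35, and Antxr2, an anthrax toxin receptor gene, by 0.33. Other probe sets existed for 33 of the 48 genes. Of these 70 probe sets, 65 differed in the same direction as the one used, and 61 did so in both lines. They were read on the same arrays, so they are not independent repeats.

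Besides Ppara, 3 genes fell. Zbtb16, the transcriptional repressor PLZF, read 556 and 638 units with RA in AML12 and v-erbA AML12 cells, against 950.5 and 852 units without, and fell by 0.58 ± 0.08 (limma adjusted p = 0.0287). Plpp3, which dephosphorylates lysophosphatidic acid, read 949.9 and 830.5 units with RA, against 1412 and 1167 units without, and fell by 0.52 ± 0.05 (limma adjusted p = 0.0066). Cited2, a transcriptional coregulator that competes for CBP and p300, read 640.5 and 823 units with RA, against 929 and 1118 units without, and fell by 0.48 ± 0.05 (limma adjusted p = 0.0136). In all 3 genes each RA array lay below both untreated arrays. Hpgd, the prostaglandin-degrading dehydrogenase, had the lowest mean difference of the genes with the same sign in both lines, RIKEN and predicted genes aside, but did not pass: it read 132 and 387 units with RA, against 368 and 549.9 units without, a difference of -0.92 ± 0.20 (limma adjusted p = 0.167). The other low means were mostly of dim genes. Ppp1r3c, a glycogen-targeting subunit, differed by -0.59 ± 0.13, Insyn2a by -0.56 ± 0.09 (limma adjusted p = 0.0548) and Ccn4, a Wnt-induced matrix protein gene, by -0.56 ± 0.11.

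Programmes of hepatocyte identity and growth had no member past the threshold at 3 h, where 0.4% of all genes tested passed. At that share most lists of such sizes would hold none, so the counts of 0 do not set these programmes apart. With limma 0 of 24 hepatocyte markers passed (median 0.04), 0 of 17 liver transcription factors (median -0.02), 0 of 34 cell cycle genes (median 0.00), 0 of 16 cholesterol synthesis genes (median -0.02) and 0 of 20 fatty acid synthesis genes (median 0.01). Alb, which encodes albumin, read 10016 and 9610 units with RA in AML12 and v-erbA AML12 cells, against 9964 and 9364 units without, a difference of 0.02 ± 0.02. Fgb, a fibrinogen chain, had the largest difference of the hepatocyte list with 0.62 ± 0.14 (limma adjusted p = 0.203). Of 20 immediate early genes 0 passed (median -0.06), with Egr1, a growth-induced zinc finger factor, at -0.38 ± 0.07 (limma adjusted p = 0.0843). Of 13 Hox, Meis and Pbx genes 0 passed (median 0.08). In the remaining lists 0 of 18 inflammatory and acute phase genes, 0 of 19 interferon-stimulated genes, 0 of 21 ER stress genes, 0 of 14 glucose and glycogen genes, 0 of 14 circadian clock genes, 0 of 13 Hippo targets and 0 of 6 prostaglandin genes passed, and 1 of 10 Wnt targets rose, Glul. A miss of the threshold with 2 pairs does not show that these genes were unaffected.

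**Figure D2:**
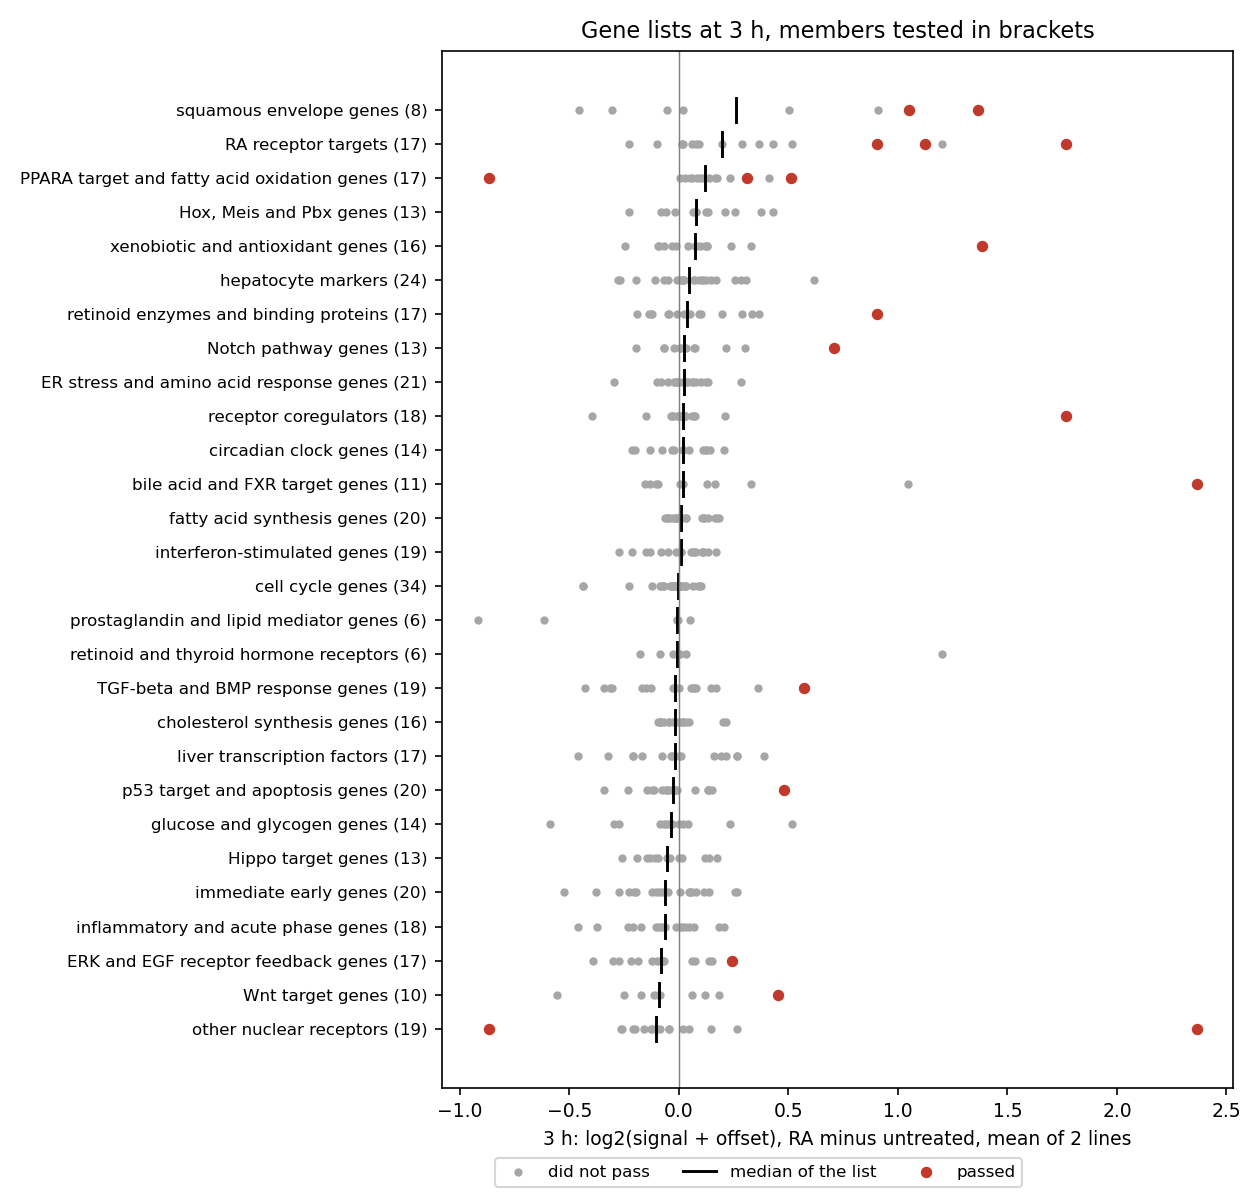
Mean log2 difference, RA minus untreated at 3 h, of each gene tested in 28 gene lists (dots), with the median of the list (black bar) and genes that passed in red. Squamous envelope genes and RA receptor targets have the highest medians, 0.26 and 0.20, and most lists are centred near 0.

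The lines were compared as single pairs of arrays, without a test, since each line had 1 RA and 1 untreated array at 3 h. In v-erbA AML12 cells 6 of 11272 genes with an array above the pooled median were at least 2-fold higher (0.0532%) and 3 at least 2-fold lower (0.0266%). In AML12 cells 17 of 11197 were at least 2-fold higher (0.152%) and 8 at least 2-fold lower (0.0714%). Of 10791 genes measurable in both, 6 were at least 2-fold higher in both lines and 0 lower in both. At 1.5-fold 31 genes were higher in both (0.287%), 1 was lower in both (0.00927%), Ppara, and 3 went opposite ways. Of the 16 genes at least 2-fold higher in AML12 and measurable in both lines, 15 had the same sign in v-erbA AML12 cells. Of the 6 at least 2-fold lower in AML12 and measurable in both, only 4 did. Across all 12015 genes tested 57.5% had the same sign in both lines, and Pearson's r between the lines' differences was 0.24 (Spearman's rho 0.20). This is a description across genes, which are not independent replicates, and the lines share no array.

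Responses were mostly smaller in v-erbA AML12 cells. Of the 48 genes that passed, 43 had the larger change in AML12 cells (89.6%), while 59.2% of all genes tested did. The 44 genes that rose had a median difference of 0.61 in v-erbA AML12 and 0.74 in AML12 cells. Among genes above the pooled median on all 4 arrays, Dhrs3 differed by 0.70 in v-erbA AML12 and 1.12 in AML12 cells and Flrt3 by 0.91 and 1.35, while Gprc5b differed by 1.09 and 1.15. The spread of differences over all genes was wider in AML12 cells too, with an SD of 0.15 in v-erbA AML12 and 0.20 in AML12 cells. The difference between lines at 3 h has no test here, and line, clone and v-erbA cannot be told apart.

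**Figure D3:**
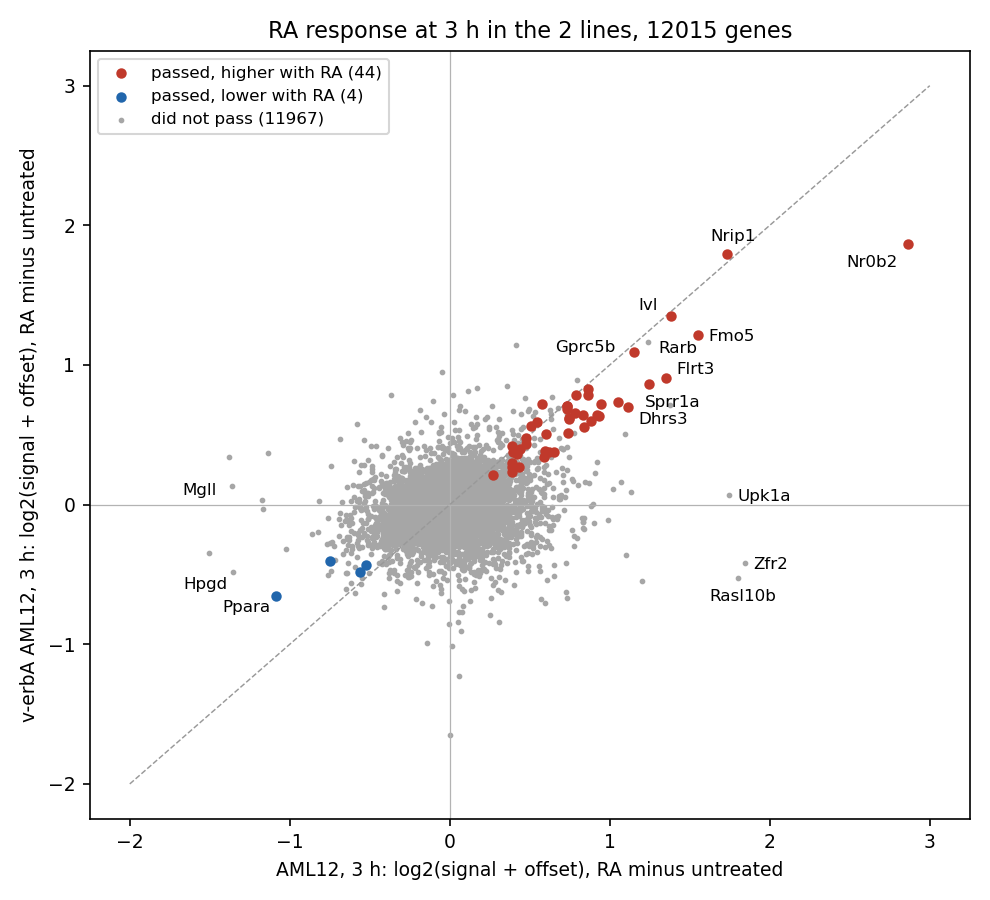
Log2 difference, RA minus untreated at 3 h, in AML12 cells (horizontal) and v-erbA AML12 cells (vertical) for 12015 genes, 1 point per gene. The 44 genes that rose (red) lie in the upper right and mostly below the dashed line of equal change, the 4 that fell (blue) in the lower left, and Zfr2, Rasl10b and Upk1a stand far to the right, at dim signals in AML12 cells, with -0.42, -0.53 and 0.07 in v-erbA AML12 cells.

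Some genes differed far more in 1 line than in the other. Mgll, the monoacylglycerol lipase gene, read 336 units in v-erbA AML12 cells with RA, against 305 units without. In AML12 cells it read 305 units with RA, against 814 units without, a difference of -1.36, so that the untreated AML12 array stood alone. The same held for Pou2f2, a lymphoid transcription factor gene, with 482 units in v-erbA AML12 cells with RA, against 469.7 units without, and 517 units in AML12 cells with RA, against 1193 units without. Boll likewise read 219 units in AML12 cells with RA, against 517.5 units without. Each of these falls rests on 1 probe set, as the other probe sets of these genes lay under the pooled median on all 4 arrays. In AML12 cells those of Mgll differed by 0.27, 0.18 and 0.08 and those of Pou2f2 by 0.40 and 0.12. Those of Boll differed by 0.56, -0.24 and -0.48. By the probe set used, Pou2f2 lay only between 66.6 and 79.5 units on the 24 h arrays and Boll between 17.4 and 38.7 units. Mgll lay between 314 and 642 units there. In the other direction Upk1a, Zfr2 and Rasl10b read 80.5, 69.2 and 64.9 units in AML12 cells with RA, against 9.96, 4.88 and 4.35 units without, all but the first below the pooled median on both arrays. In v-erbA AML12 cells they read 100.3, 47.9 and 195 units with RA, against 94.8, 70.6 and 290.1 units without, so that Rasl10b was lower with RA there by measured signals. Differences of 1 array per combination have no spread of their own.

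Most of the genes that passed at 3 h also passed at 24 h. Of the 48 genes, 39 also passed at 24 h, where 362 genes (3.01%) passed, and 46 had the same sign in all 4 pairs of arrays. The exceptions were Baiap2l1 and Errfi1. The mean change was larger at 3 h than at 24 h for 37 of the 48, a count that the choice of genes at 3 h favours. The 3 h and the 24 h effects come from separate arrays, and Pearson's r between them across the genes tested was 0.26. Their tests share the same estimate of the spread, however. A gene with a small spread is favoured at both times, so neither the 39 nor the 46 is an independent repeat. That spread is the difference between the lines, so the choice of genes itself favours equal signs. The share with equal signs in all 4 pairs was not counted over all genes tested. Averaged over lines and treatments, the signal differed at least 8-fold between the times for 52 genes tested, of which 0 were among the 48. One probe set of Sox9, not the one used, differed 72.3-fold between the times, and the others of Sox9 1.55- and 1.35-fold. Time and any batch of arrays cannot be told apart here. The difference of the RA effect between times passed for 3 genes (0.025%), with limma, and all 3 changed more at 24 h.

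Sprr1a was the only one of these 3 genes that had passed at 3 h. It rose by 1.05 ± 0.11 at 3 h and by 2.95 ± 0.11 at 24 h, a difference of -1.89 ± 0.15 (limma adjusted p = 0.0138). Rnase4, which encodes a secreted ribonuclease, read 138 and 129.7 units with RA in AML12 and v-erbA AML12 cells at 3 h, against 79.0 and 72.8 units without. At 24 h it read 394 and 781 units with RA, against 8.07 and 16.6 units without, so that its untreated arrays were much dimmer than at 3 h. The difference was 0.68 ± 0.15 at 3 h and 4.17 ± 0.15 at 24 h, with untreated arrays under the pooled median at 24 h, and the times differed by -3.49 ± 0.22 (limma adjusted p = 0.0035). Slco2a1, the prostaglandin transporter, read 2180 and 2417 units with RA at 3 h, against 2248 and 2367 units without. Its difference was -0.01 ± 0.06 at 3 h and -0.90 ± 0.06 at 24 h (limma adjusted p = 0.0305 for the difference of 0.895).

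No gene passed as stronger at 3 h than at 24 h, but several had their larger values there. Glul differed by 0.45 ± 0.05 at 3 h and by 0.06 ± 0.05 at 24 h, and the difference of 0.39 ± 0.07 did not pass (limma adjusted p = 0.178). Errfi1 differed by 0.24 ± 0.03 at 3 h and by -0.01 ± 0.03 at 24 h, and Baiap2l1 by 0.35 ± 0.05 and -0.07 ± 0.05. Ndrg1, a stress-responsive gene, differed by 0.40 ± 0.04 at 3 h and 0.09 ± 0.04 at 24 h, Klb by 0.63 ± 0.07 and 0.18 ± 0.07, and Dhrs3 by 0.91 ± 0.09 and 0.43 ± 0.09. Their adjusted p-values for the difference between times lay between 0.178 and 0.336 with limma. In Dhrs3 the untreated arrays themselves differed, with 529.6 and 769 units at 3 h and 953 and 1390.3 units at 24 h in AML12 and v-erbA AML12 cells.

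**Figure D4:**
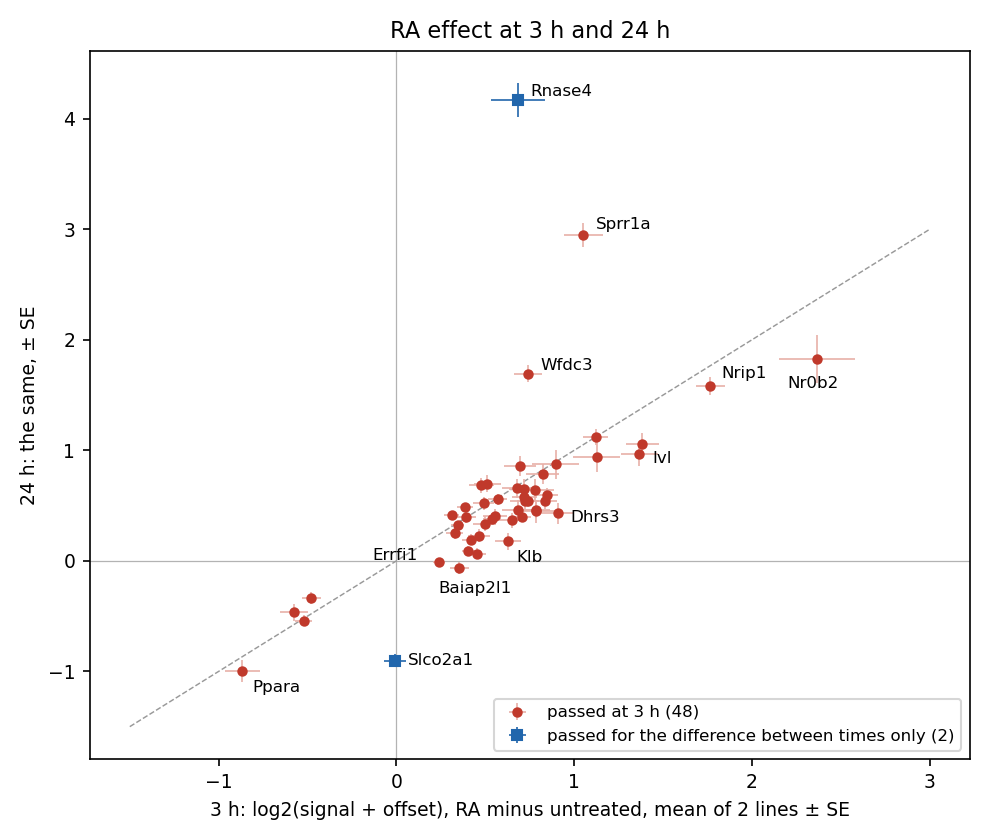
Mean log2 difference, RA minus untreated, at 3 h (horizontal) and 24 h (vertical), with SE bars, for the 48 genes that passed at 3 h (red) and the 2 that passed only for the difference between times (blue). Most points lie near the dashed line of equal change, Rnase4, Sprr1a and Wfdc3 lie above it, and Errfi1 and Baiap2l1 lie near 0 at 24 h.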

How the data were processed

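Total RNA of the 8 samples was biotin-labelled for Affymetrix mouse arrays, per the labels. The authors deposited a linear intensity for every probe set on every array. How probes were summarized and arrays scaled is not given in the sources used here, and that scaling was kept. Of 45037 probe sets, 1 with missing values was left out, 34944 named 1 gene by the platform annotation, 932 named several and 9160 none. The brightest probe set stood for each of 18192 genes. Values were taken as log2(signal + 19.9), the offset being the 20th percentile of all values. Genes with at least 2 of 8 arrays above the pooled median of 73.5 were tested (12015; 6177 were dim).

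Effects were fitted in R 4.3.3 (limma 3.58.1) with a trended empirical Bayes step: line by time means and treatment within time, 2 residual degrees of freedom, Benjamini-Hochberg adjustment. The script was tested on simulated data. No combination was replicated, so p-values measure only the spread between these arrays. That residual spread is how far the 2 lines differed in their RA effect at each time. A true difference between the lines adds to it, as may technical variation, and genes that changed alike in both lines pass more easily. Precision is limited by the number of arrays. A fold against arrays under the pooled median is a bound against that level, and none is given where both sides lie under it. No detection calls were used.

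Titles set the groups, although 3 of the 4 samples titled 24 h have descriptions naming 3 h. The RA dose of the v-erbA sample comes from the series' design text. Named genes are the 14 highest and 14 lowest mean 3 h differences of 1 sign in both lines, the 6 largest rises and falls of each line, both without RIKEN and predicted symbols, the genes past the threshold for the difference between times with the next smallest p-values, a fixed set of retinoid and liver genes, and genes of 28 lists. Some of those chosen by the rule are not described. Genes and lists were chosen with earlier results of these data known. Alternatives changed scaling, offset, filter, probe sets, model and arrays. Python 3.11.15 and matplotlib 3.10.9 drew the figures.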

Additional observations from a re-analysis of the deposited data

Results flagged for a closer look

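For 3 genes the RA effect differed between 3 h and 24 h by limma's test: Rnase4 by -3.49, Sprr1a by -1.89 and Slco2a1 by 0.895 (3 h minus 24 h, log2). Their signals are given in the report.

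Of the genes named by rule, 8 differed by at least 1 on the log2 scale in 1 line at 3 h and had the opposite sign in the other line. Opposite signs are common, since 57.5% of all genes tested had the same sign. The values are the log2 difference in AML12 minus that in v-erbA AML12 cells, and whether the lines differ was not tested, since each combination had 1 array. The difference was 2.33 for Rasl10b, 2.26 for Zfr2, 1.28 for Cdhr4 and 1.03 for Oosp1, and -1.72 for Hpgds, -1.5 for Sla2, -1.49 for Mgll and -1.21 for Pou2f2. Of these only Mgll and Pou2f2 lay above the pooled median on all 4 arrays of 3 h, by the probe set used. The other values are as measured, with both arrays of at least 1 line under that level, and no fold is read from them. Oosp1 and Cdhr4 differed by -1.01 and -1.22 in v-erbA AML12 cells and by only 0.01 and 0.06 in AML12 cells.

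Among 3636 probe sets that name no gene or several genes, 14 were at least 1.5-fold lower in both lines at 3 h and 2 at least 1.5-fold higher. Among all genes tested, by their brightest probe set and whatever their 3 h signals, 3 were lower and 33 higher.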

How the results depend on the processing

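With 1 array per combination the spread is the departure from the model, so the counts of genes depend on it. The 48 genes at 3 h became 100 with all named probe sets tested (79 higher, 21 lower), 464 from the 3 h arrays alone (262 higher, 202 lower) and 0 with limma from those arrays without the line term (69 with an unadjusted p under 0.05) or without the mean-variance trend (882). With each array centred on its median, which moved the median of all genes to 0.04, 69 passed, and under the other settings 34 to 59. Leaving out 1 array gave 1 to 497 genes (284 higher, 213 lower at 497), and for the difference between times 0 to 1363. That difference had 5 genes after median centring and without the dim filter, 1 with the brighter filter and 0 without the trend (limma, 986 with an unadjusted p under 0.05). Pairing by line is part of the model, and the labels give no replicate numbers to pair by.

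The 2-fold counts follow the offset. With an offset of 1, 6 genes were lower in v-erbA AML12 and 29 higher in AML12 cells, and 2 were 1.5-fold lower in both. With the offset at the pooled median 3 were higher and 0 lower in v-erbA AML12 and 9 higher and 4 lower in AML12 cells, and 19 were 1.5-fold higher in both. With both arrays of a pair above the median 0 were lower in v-erbA AML12 and 11 higher and 5 lower in AML12 cells.

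Slco2a1 turned to 0.0358 at 3 h after median centring. Without a 3 h array of 1 line the value is that of the other line, and 21 named genes changed sign, none of which had passed at 3 h. The lowest and highest values over the arrays left out were -0.20 and 0.38 for Cyp26b1, -0.0272 and 0.29 for Epcam, -1.38 and 0.34 for Hpgds, -0.60 and 0.0513 for Ifit1, -1.36 and 0.13 for Mgll, -1.17 and 0.0364 for Pou2f2, -0.82 and 0.0276 for Ppargc1b, -0.53 and 1.80 for Rasl10b, -1.14 and 0.37 for Sla2, -0.0439 and 0.0303 for Slco2a1, and -0.42 and 1.84 for Zfr2. They were -0.13 and 0.17 for Adgre1, -0.24 and 0.46 for Apoa1, -1.22 and 0.0607 for Cdhr4, -0.77 and 0.058 for Haao, -0.60 and 0.16 for Kdr, -1.01 and 0.0132 for Oosp1, -0.37 and 0.20 for Rarg, -0.0032 and 0.0551 for Sdc4, -0.10 and 0.10 for Thra, and -0.79 and 0.25 for Ugt8a.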

Other observations

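Probe sets that were not the brightest of their gene gave a second view of the 3 h response. Of 9304 past the dim filter, 19 were at least 1.5-fold higher in both lines, from 14 genes, and for 14 of the 19 the brightest probe set was also at least 1.5-fold higher in both. Mbd1, a methyl-CpG-binding protein gene, was an exception among them: this probe set read 126 and 55.7 units with RA in AML12 and v-erbA AML12 cells, against 33.0 and 26.2 units without, while its brightest one differed by 0.27 and 0.15.

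Of the same 9304 probe sets 10 were at least 1.5-fold lower in both lines, and for 1 of them, of Ppara, the brightest probe set was too. Among the others were probe sets of Fn1, which encodes fibronectin, of Mtss1, an actin-binding protein gene, and of Nfat5, an osmotic stress factor. That of Fn1 read 451 and 527 units with RA in AML12 and v-erbA AML12 cells, against 799 and 838 units without, while the brightest one differed by -0.03 and 0.00. That of Mtss1 read 172 and 166 units with RA, against 367 and 312 units without, with -0.27 and -0.17 in the brightest one. That of Nfat5 read 373 and 321 units with RA, against 606 and 493 units without, with -0.40 and -0.32. Why probe sets of 1 gene differ was not tested. These genes were singled out after their values were seen.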
